A study of Homo sapiens with 6 samples.

Results

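Imprinted genes were described in H3K27me3 and H3K4me3 ChIP-seq of G401 cells, a line from a malignant rhabdoid tumor without the chromatin remodeling subunit SMARCB1. The 10 genes were taken as a named list of imprinted autosomal genes (H19, MEG3, DLK1, GRB10, PLAGL1, PEG3, PEG10, MEST, NDN and MAGEL2) out of 56638 genes in the count table. They were chosen by name, with no threshold on a measured value. Cells of this line were cultured for 3 days with the vehicle DMSO or with 3 µM MAK683, a small molecule that binds EED and inhibits the polycomb complex PRC2. Each treatment had 1 library of H3K27me3, 1 of H3K4me3 and 1 of input, which is chromatin sequenced without an antibody, so the 6 libraries gave no replicate error and no p-value was computed. G401 is a single tumor line in culture, and its loss of SMARCB1 was shared by both treatments. SMARCB1 itself drew 0 input reads in either treatment.

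In genomic imprinting, a gene is expressed mainly from the copy inherited from a given parent. DNA methylation set in the germ line at imprinting control regions tells the copies apart, and repressive histone marks can add to the silencing of a copy. PRC2 places H3K27me3 on silent genes, whereas H3K4me3 marks the promoters of active or poised genes, so an imprinted gene can carry both marks on different copies in the same cell. The counts summed both parental copies and could not tell them apart. They also could not separate copies or cells that differ in a mark.

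Library totals lay between 13308099 and 21281877 counts. The H3K27me3 library of MAK683 had 0.694 times the total of the DMSO library, and the H3K4me3 library 0.922 times. The deposited values were raw counts without the Drosophila spike-in scaling described in the methods, so they carry the distribution of reads within a library, while the amount of a mark per cell is not measured. The authors report a massive loss of H3K27me3 across the genome after MAK683. A higher or similar share of H3K27me3 reads in MAK683 thus does not show that a gene gained or kept the mark. Changes are therefore given as the log2 ratio of MAK683 to DMSO with 1 count added, minus the median over all genes that had at least 10 counts in either library. That median was -0.44 for H3K27me3 over 29931 genes and -0.11 for H3K4me3 over 30028 genes. Levels are given as the log2 ratio of ChIP to input in CPM, the counts scaled to a common library total, with 0.05 CPM added, and their percentiles are among 21263 genes with at least 100 input counts. The 95% intervals are exact Clopper-Pearson intervals and cover counting error only.

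Promoter sequences of the members show how unlike these genes are at their starts. RefSeq promoter windows, the 250 bases before a transcription start on GRCh38.p14, were found for 7 of the 10 genes (H19, MEG3, GRB10, PLAGL1, MEST, NDN and MAGEL2), with 21 windows in all. The 3 windows below were chosen for their range in CpG, the dinucleotide at which DNA methylation sits, with 4 in H19, 13 in MEG3 and 30 in NDN against a median of 11 over all 35116 windows. Capitals mark TGCCGC or its reverse complement GCGGCA, the core letters bound by ZFP57, a zinc finger protein that protects methylated imprinting control regions. All are written 5′ to 3′ on the strand of the gene. The H19 window was chr11:2001267-2001516 on the minus strand, the MEG3 window chr14:100825858-100826107 on the plus strand and the NDN window chr15:23687306-23687555 on the minus strand.
H19: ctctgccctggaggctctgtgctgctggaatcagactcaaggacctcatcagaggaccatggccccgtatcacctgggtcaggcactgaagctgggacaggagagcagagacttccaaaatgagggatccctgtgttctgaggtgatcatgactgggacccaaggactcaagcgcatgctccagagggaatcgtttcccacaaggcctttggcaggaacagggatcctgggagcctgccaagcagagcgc
MEG3: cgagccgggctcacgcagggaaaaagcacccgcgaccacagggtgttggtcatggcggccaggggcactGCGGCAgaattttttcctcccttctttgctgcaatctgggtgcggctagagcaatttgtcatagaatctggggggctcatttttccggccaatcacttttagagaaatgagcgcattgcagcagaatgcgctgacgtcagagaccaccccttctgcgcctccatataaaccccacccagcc
NDN: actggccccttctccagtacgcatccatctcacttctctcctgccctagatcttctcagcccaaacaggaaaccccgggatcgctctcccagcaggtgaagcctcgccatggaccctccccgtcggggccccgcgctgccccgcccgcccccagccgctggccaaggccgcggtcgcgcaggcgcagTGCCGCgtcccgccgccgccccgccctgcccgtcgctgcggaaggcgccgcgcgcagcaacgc
The H19 window had a GC content of 58.0%, equal to the median of 58% over all windows, but few CpG. The NDN window had a GC content of 73.2% and the MEG3 window 56.4%. TGCCGC was found on either strand in 7 of the 21 windows, and in 12.7% of all windows. The windows of a gene overlap in MEG3 and MEST, so they are not independent of each other. The windows of GRB10 ranged from 2 to 40 CpG, and 2 windows of PLAGL1 had 1 CpG each. These are matches of letters in 1 window per start. The ChIP-seq counts are 1 value per gene and were not resolved to these windows.

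Of the 10 genes, 8 passed the count minimum for both marks and for input. PEG3 had 0 counts in all 6 libraries and MAGEL2 had at most 5 counts in any, so no level or change is given for them. Where a gene's span was not shared with another annotated gene (GENCODE release 44 on GRCh37, the build of the deposited counts), both inputs together had a median of 27.9 counts per kb over 20319 genes, with quartiles of 25.2 and 31.3. H19 at 22.4, DLK1 at 21.5 and NDN at 17.3 input counts per kb were below the lower quartile. MEST at 42.4 was above the upper quartile, but this divides all of its 533 input counts by the 61.9% of its span that was unshared. If reads in the shared part were counted too, the value is too high, so it does not show raised input. Input per kb differed by gene, and levels are compared between genes only as ratios to input.

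In DMSO, H3K27me3 exceeded input in 4 of the 8 measured genes (DLK1, NDN, GRB10 and MEG3), against 32.8% of all genes, and H3K4me3 exceeded input in 5 of 8 (PEG10, MEST, H19, NDN and PLAGL1), against 39.8% of all genes. The median level of H3K27me3 over input was 0.16 for the 8 genes and -0.62 for all genes, and that of H3K4me3 was 0.26 and -0.32. With 8 genes these medians are a description and do not set imprinted genes apart. H3K27me3 stood above input without H3K4me3 in 3 genes (25.9% of all genes), H3K4me3 without H3K27me3 in 4 (32.9%), both in NDN alone (6.87%) and neither in 0 (34.3%). A level is 1 value per gene, and division by input does not show where in a gene a mark lies. PEG10 with 13.4 kb and SGCE with 132.4 kb share a promoter, yet their H3K4me3 levels were 1.43 and -0.23. A level not above input, as in the long GRB10 and MEG3, therefore does not show that H3K4me3 is absent from the promoter.

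By H3K27me3 over input in DMSO, DLK1 came first with 1.96 (95% interval 1.68 to 2.27). NDN followed with 0.82 (0.0037 to 1.75), then GRB10 with 0.74 (0.67 to 0.81) and MEG3 with 0.62 (0.48 to 0.76). The intervals of DLK1 and NDN overlapped, as did those of NDN, GRB10 and MEG3, so the order within those neighbors was not resolved by counting. Below input came PLAGL1 with -0.29 (-0.39 to -0.19), MEST with -0.51 (-0.78 to -0.25), H19 with -0.77 (-1.25 to -0.31) and PEG10 with -1.06 (-1.43 to -0.71). Each of these 4 overlapped its neighbor in the order, and the gap between MEG3 and PLAGL1 was larger than both intervals. By H3K4me3 over input, PEG10 came first with 1.43 (1.19 to 1.68) and was separate from MEST with 0.63 (0.41 to 0.85). MEST, H19 with 0.48 (0.12 to 0.85), NDN with 0.34 (-0.55 to 1.29) and PLAGL1 with 0.18 (0.088 to 0.27) overlapped their neighbors. DLK1 with -0.24 (-0.62 to 0.13), GRB10 with -0.47 (-0.55 to -0.38) and MEG3 with -0.63 (-0.79 to -0.46) were last, again with overlapping neighbors.

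**Figure D1:**
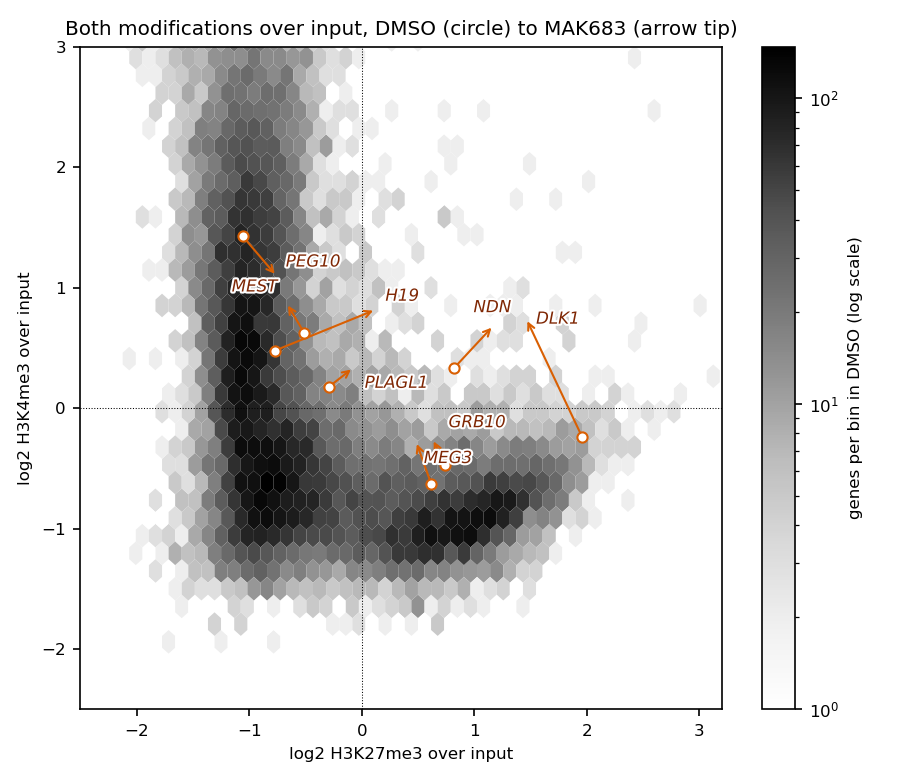
Log2 H3K27me3 over input (horizontal) against log2 H3K4me3 over input (vertical) for the 8 measured imprinted genes, circles for DMSO and arrow tips for MAK683, over the density of all genes with at least 100 input counts in DMSO (grey, log scale, genes outside the axes not drawn). DLK1 starts at the right edge of the grey cloud at 1.96 and moves up from -0.24 to 0.75, H19 moves right from -0.77 to 0.14, and PEG10 lies in the column of genes low in H3K27me3 and high in H3K4me3.

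After MAK683, the H3K27me3 library held a smaller share of DLK1 reads and a larger share of H19 reads than the median of all genes, and on that scale also a smaller share of MEST and GRB10 reads. H3K4me3 was higher relative to all genes for DLK1, MEG3, GRB10 and H19 and lower for PEG10. For H3K27me3, the interval lay above the value of all genes in 1 of 8 members (15.9% of all genes) and below it in 3 of 8 (18.7%). Scaled by library totals, the latter was 1 of 8 (13.6% of all genes), DLK1, since MEST and GRB10 were then within counting error. Scaled with the TMM factors of edgeR it was 4 of 8 (19.6% of all genes), and centred on autosomal genes also 4 of 8 (19.7%). For H3K4me3, the interval lay above in 4 of 8 (19.3%) and below in 1 of 8 (21.8%). None of the 8 was at least 2-fold lower in H3K27me3 (3.55% of all genes) or at least 2-fold higher (3.32%), and DLK1 was the only member at least 2-fold higher in H3K4me3 (4.19%). The median change was -0.10 for H3K27me3 and 0.21 for H3K4me3. In 4 of the 8 genes, H3K27me3 was below and H3K4me3 above the value of all genes, a pairing held by 28.7% of all genes.

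H19 is a maternally expressed long noncoding RNA that shares its imprinting control region with the growth factor gene IGF2. It lies at chr11:2016396-2025782 on the minus strand (GRCh37), 9.39 kb without overlap by another annotated gene. In DMSO it had 98 input, 65 H3K27me3 and 173 H3K4me3 counts, and in MAK683 112 input, 84 H3K27me3 and 200 H3K4me3 counts. The H3K27me3 count was thus higher in MAK683 as deposited, although that library was the smaller of the pair. Of all genes, 13.3% had more H3K27me3 counts in MAK683. Relative to all genes the H3K27me3 change was 0.81 (0.33 to 1.30), and H19 was the only member at least 1.5-fold higher (9.03% of all genes). Its H3K27me3 level went from below input, at -0.77, to 0.14 (-0.29 to 0.56), which could not be told from input, and from percentile 48.6 to 74.6. H3K4me3 was above input in both treatments, at 0.48 and 0.82, and its change of 0.32 (0.021 to 0.62) was barely outside counting error.

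The domain of H19 on chromosome 11 held the lowest H3K27me3 changes of all listed imprinted genes with enough counts. IGF2, which starts 153.8 kb away and has 4.91% of its span unshared, went from 17 to 34 H3K4me3 counts, a change of 1.07 (0.23 to 2.05). Its H3K27me3 counts went from 49 to 28, a change of -0.35 (-1.09 to 0.33). INS-IGF2, an entry that overlaps IGF2, had more counts and did not share these changes. It went from 165 to 151 H3K4me3 counts, a change of -0.014, and from 111 to 96 H3K27me3 counts, a change of 0.23. The cell cycle inhibitor gene CDKN1C, 881.2 kb away at the far end of the domain, went from 113 H3K27me3 counts to 20, a change of -2.00 (-2.82 to -1.36). PHLDA2, whose product restrains placental growth, went from 89 to 14, a change of -2.14 (-3.16 to -1.41). H3K27me3 over input thus went from 2.41 to -0.032 for CDKN1C and from 2.62 to -0.031 for PHLDA2, in the direction opposite to H19. Both already carried H3K4me3 over input in DMSO, at 5.69 for CDKN1C and 3.14 for PHLDA2, though their input was thin, at 18 and 12 counts. Their H3K4me3 changes went opposite ways, with -0.28 (-0.41 to -0.16) for CDKN1C and 0.42 (0.095 to 0.75) for PHLDA2. KCNQ1, the long gene between the ends of the domain, had H3K27me3 over input of -0.11 and -0.12. KCNQ1OT1, the antisense transcript that silences this part of the domain in cis, was at 0 in all 6 libraries, as was IGF2-AS. These zeros include the inputs, and the spans of KCNQ1OT1 (102.7 kb) and IGF2-AS (8.17 kb) have no unshared part. Neither mark could therefore be read at these genes. Whether reads in them were left unassigned because of the overlap was not tested. The 4 nearest genes around H19 with at least 100 input counts leave out IGF2 and include INS-IGF2. They had a median H3K27me3 change of 0.21 and a median H3K4me3 change of 0.014.

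MEG3 is a maternally expressed long noncoding RNA at chr14:101245747-101327368 on the plus strand, 81.6 kb of which 67.3% was unshared. It had 679 input, 1186 H3K27me3 and 555 H3K4me3 counts in DMSO, and 844, 802 and 706 in MAK683. H3K27me3 was over input in both treatments, at 0.62 and 0.48, and H3K4me3 under it, at -0.63 and -0.27. The H3K27me3 share of reads in MAK683 was 40.3% (38.2 to 42.5), which included the 42.4% of all genes, so the change of -0.12 was within counting error. H3K4me3 was higher in MAK683, with a change of 0.46 (0.30 to 0.62). It still lay below input.

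DLK1 encodes a transmembrane ligand related to the Notch ligands that keeps progenitor cells, such as preadipocytes, from differentiating, and it is expressed from the paternal copy. It lies at chr14:101192042-101204561 on the plus strand, 12.5 kb without overlap, and its start is 53.7 kb from that of MEG3. In DMSO it had 119 input, 530 H3K27me3 and 127 H3K4me3 counts, and in MAK683 150 input, 282 H3K27me3 and 255 H3K4me3 counts. H3K27me3 was the highest of the members and at percentile 99.0 of all genes in DMSO. In MAK683 it was 1.46 (1.17 to 1.76), still at percentile 98.6, and the relative change was -0.47 (-0.68 to -0.26). H3K4me3 over input went from -0.24, within counting error of input, to 0.75 (0.46 to 1.06), and from percentile 50.1 to 73.0. The H3K4me3 change was 1.11 (0.81 to 1.44), the largest of the members. Within the MAK683 libraries, DLK1 reads of H3K27me3 therefore stayed well over input while its H3K4me3 reads were more frequent. How much H3K27me3 remained at DLK1 per cell was not measured.

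Along the DLK1 and MEG3 domain on chromosome 14, H3K27me3 over input in DMSO was 0.65 at BEGAIN, 0.56 at LINC00523, 1.96 at DLK1, 0.62 at MEG3 and 0.33 at MEG8. It was -0.42 (-1.08 to 0.22) at RTL1, which counting did not tell from input, and under input at MEG9, with -0.78 (-1.49 to -0.13). It was highest at the other end, with 2.81 at DIO3, which encodes the deiodinase that inactivates thyroid hormone. Among the listed imprinted genes, H3K27me3 was thus highest at the 2 protein-coding genes toward the ends of the domain and lower at the genes between them. DIO3 went from 262 to 173 H3K27me3 counts, a change of -0.16 (-0.44 to 0.12), and its level in MAK683 was 2.57. H3K4me3 was higher relative to all genes at each of the 6 listed genes of the domain, from 0.28 at MEG8 to 1.11 at DLK1, where 50.0% of all genes are above 0. The intervals excluded 0 at DLK1, MEG3 and MEG8 and included it at RTL1, MEG9 and DIO3, which had 48 to 72 H3K4me3 counts per library. These genes are neighbors in the same libraries and are not independent observations. RTL1 and DIO3 have no unshared span in GENCODE release 44 but did have counts. The annotation and the gene part used for counting are not named.

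GRB10 encodes an adaptor that binds the insulin and IGF1 receptors and dampens their signaling, with a parental bias that differs between tissues and promoters. It is the longest member, at chr7:50657760-50861159 on the minus strand with 203.4 kb, and therefore had the most precise values. It had 2298 input, 4371 H3K27me3 and 2099 H3K4me3 counts in DMSO, and 2906, 3054 and 2466 in MAK683. Its H3K27me3 was over input in both treatments, at 0.74 and 0.62, and its H3K4me3 under it, at -0.47 and -0.25. The H3K27me3 share in MAK683 was 41.1% (40.0 to 42.3), just under the 42.4% of all genes, but it was not under the 41.0% that the library totals give, and scaling by those totals turned the change from -0.077 to 0.0089. The direction for H3K27me3 was therefore set by the scale. H3K4me3 had a change of 0.35 (0.26 to 0.43). Of the neighbors, DDC had H3K27me3 over input of 0.82 in DMSO and COBL -0.45.

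MEG3 and GRB10 were the closest pair of members over the 4 values of both marks over input in both treatments, with a Euclidean distance of 0.25 on the log2 scale. DLK1 and PEG10 were the farthest, at 4.11. MEG3 and GRB10 are a noncoding RNA and a signaling adaptor on different chromosomes, both long, both over input in H3K27me3 and under it in H3K4me3.

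Among the transcription factor genes, PLAGL1 encodes a zinc finger protein that can halt cell growth and is expressed from the paternal copy. It lies at chr6:144261437-144385736 on the minus strand, 124.3 kb of which 96.4% was unshared. It had 1649 input, 1536 H3K27me3 and 2360 H3K4me3 counts in DMSO, and 1758, 1145 and 2241 in MAK683. Both marks stayed near input, H3K27me3 at -0.29 and -0.066 and H3K4me3 at 0.18 and 0.34. Its changes, 0.017 (-0.095 to 0.13) for H3K27me3 and 0.038 (-0.046 to 0.12) for H3K4me3, were the smallest of the members, and these counts limit either to within 0.13 of all genes in both directions. STX11, 85.9 kb beyond PLAGL1, was among the flanking genes highest in H3K27me3, with 1.35 over input in DMSO. PEG3, also a paternally expressed zinc finger gene, lies at chr19:57321445-57352096 on the minus strand, and its whole span is overlapped by ZIM2 and a further annotated gene. It had 0 counts in every library, the inputs included, so neither mark could be read. ZIM2, which starts 0.003 kb from it and covers it, went from 94 to 85 H3K27me3 and from 135 to 159 H3K4me3 counts. Its H3K27me3 over input was -0.24 and -0.25. Only 0.0045% of the ZIM2 span was unshared, so where its reads lie is not known and they do not stand in for PEG3. In the same domain ZNF264 had H3K4me3 over input of 1.91 and 1.57, and H3K4me3 in DMSO was under input at ZIM3 with -0.59 (-0.97 to -0.21), NLRP2 with -0.58 (-0.79 to -0.37) and MIMT1 with -0.46 (-0.89 to -0.053). ZIM3 went from 109 to 168 H3K4me3 counts, a change of 0.73 (0.38 to 1.10). Whether reads in PEG3 were left unassigned because of the overlap was not tested.

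PEG10, a paternally expressed gene derived from a retrotransposon and needed for placental development, lies at chr7:94285637-94299007 on the plus strand, 13.4 kb of which 98.1% was unshared. It had 184 input, 100 H3K27me3 and 628 H3K4me3 counts in DMSO, and 220, 89 and 472 in MAK683. It was the member lowest in H3K27me3, at -1.06 and -0.75 over input, and highest in H3K4me3, at 1.43 and 1.09. It was also the only member whose H3K4me3 interval lay below the value of all genes, with a change of -0.30 (-0.47 to -0.12), whereas the H3K27me3 change of 0.27 (-0.16 to 0.70) was within counting error. SGCE, the paternally expressed gene that starts 0.247 kb away on the opposite side of the same promoter, had H3K27me3 over input of -1.17 and -0.78. Its H3K4me3 was -0.23 and -0.081 over its span of 132.4 kb. Farther along chromosome 7 the values were of another kind. DLX5, a homeobox gene whose imprinting in humans is disputed, had the highest H3K27me3 over input of the other imprinted genes in DMSO, at 3.10. It went from 487 to 237 H3K27me3 counts and from 76 to 209 H3K4me3 counts, and its H3K4me3 change was 1.56 (1.19 to 1.97). DLX5 and DLK1 thus shared a high H3K27me3 level in DMSO, a relative H3K27me3 change below 0 and an H3K4me3 change of more than 2-fold.

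MEST encodes a protein with an alpha/beta hydrolase fold and is expressed from the paternal copy. It lies at chr7:130126012-130146306 on the plus strand, 20.3 kb. It had 261 input, 208 H3K27me3 and 510 H3K4me3 counts in DMSO, and 272, 116 and 505 in MAK683. H3K27me3 was under input in both treatments, at -0.51 and -0.67, and its share in MAK683 was 35.8% (30.6 to 41.3), below the 42.4% of all genes but not clear of the 41.0% that the library totals give. The change was -0.40 (-0.74 to -0.067). The level in DMSO was below input but above the median of all genes, and the percentile went from 61.9 to 41.1. H3K4me3 was above input, at 0.63 and 0.88, with a change of 0.099 (-0.082 to 0.28) within counting error. Of its neighbors, KLF14, a zinc finger gene expressed from the maternal copy, carried both marks, with H3K27me3 over input of 1.65 and 1.71 and H3K4me3 of 2.86 and 3.43. It went from 95 to 44 H3K27me3 counts, a change of -0.65 (-1.22 to -0.14), and its input was 26 and 19 counts.

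NDN and MAGEL2 encode proteins of the MAGE family and are silent in Prader-Willi syndrome, in which the paternal copies on chromosome 15 are lost or silenced. NDN lies at chr15:23930547-23932452 on the minus strand and has 1.91 kb. It had 18 input, 37 H3K27me3 and 29 H3K4me3 counts in DMSO, and 15, 24 and 25 in MAK683. H3K27me3 over input was 0.82 and 1.18 (0.24 to 2.27), and NDN was the only member above input in both marks in DMSO, but its H3K4me3 intervals, -0.55 to 1.29 in DMSO and -0.25 to 1.76 in MAK683, included input. Its changes of -0.16 (-0.99 to 0.60) and -0.094 (-0.93 to 0.72) have intervals that reach almost to 2-fold lower, so smaller changes were not detectable at this depth. MAGEL2, at chr15:23888696-23893014 on the minus strand with 4.32 kb, had 2 input, 5 H3K27me3 and 2 H3K4me3 counts in DMSO, and 4, 2 and 5 in MAK683. Its input came to 2.95 counts per kb of unshared span, so the lack of counts touched the input as well as both marks. Next to them, MKRN3 had H3K27me3 over input of 0.30 and 0.35 and GOLGA6L2, the flanking gene highest in H3K27me3, 1.40 and 1.40. SNRPN, an entry of 155.1 kb of which 27.1% was unshared, had -0.31 and -0.19 for H3K27me3 and -0.27 and -0.25 for H3K4me3. UBE3A, expressed from the maternal copy in neurons, had the lowest H3K27me3 over input in DMSO among the other imprinted genes that averaged 50 counts or more, at -1.28, and H3K4me3 over input of 2.57.

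The expressed parental copy did not sort the levels. The maternally expressed H19 and MEG3 had H3K27me3 over input of -0.77 and 0.62 in DMSO, and the 5 measured paternally expressed genes ranged from -1.06 to 1.96. H3K4me3 over input ranged from -0.63 to 0.48 in the former and from -0.24 to 1.43 in the latter, so the ranges overlapped. The H3K27me3 change ranged from -0.12 to 0.81 and from -0.47 to 0.27. With 2 genes on the maternal side this is a listing of values.

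In MAK683, H3K27me3 was above input in 5 of 8 members (34.3% of all genes) and at least 2-fold above in 2 (9.93%), DLK1 and NDN, against 1 of 8 in DMSO (13.5%). H3K4me3 was above input in 6 of 8 (41.7%), since DLK1 joined. In each treatment PEG10 was the only member at least 2-fold above input in H3K4me3 (21.1% of all genes in DMSO and 20.1% in MAK683). Both marks were above input in 3 members (8.64%), DLK1, NDN and H19, of which H19 for H3K27me3 and NDN for H3K4me3 were within counting error of input.

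The wider set of imprinted genes was described with a list of 69 others, of which 64 were in the table, 12 were at 0 in all 6 libraries and 51 passed the count minimum. H3K27me3 was at least 2-fold lower relative to all genes in 3 (PHLDA2, CDKN1C and VTRNA2-1) and at least 2-fold higher in 1 (ZNF112), against 3.55% and 3.32% of all genes. VTRNA2-1 went from 21 to 7 counts, a change of -1.02 (-2.62 to 0.14), and ZNF112 from 19 to 32, a change of 1.16 (0.33 to 2.09). Both are low in counts and were chosen after their values were seen. For H3K4me3, 2 genes (DLX5 and IGF2) were higher by 2-fold or more and 0 lower, against 4.19% and 1.84%. IGF2 had only 17 and 34 H3K4me3 counts, and the overlapping entry INS-IGF2 had a change of -0.014. WT1, a transcription factor gene of kidney development that is imprinted in some tissues, came next among genes with at least 50 counts, with 412 and 676 H3K4me3 counts, a change of 0.83 (0.65 to 1.01), and 2233 and 1288 H3K27me3 counts, a change of -0.35 (-0.45 to -0.25). ZNF331 had the largest H3K27me3 change upward of these genes, 0.66 (0.47 to 0.86), with 402 and 469 counts, and so shared its direction with H19. The medians of the 51 were 0.067 for the H3K27me3 change and 0.16 for the H3K4me3 change, and H3K27me3 exceeded input in DMSO in 17 of them, 33.3% beside 32.8% of all genes.

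Genes that set, read or protect imprints were measured too, 21 of 21 over the count minimum. Among them were ZFP57, TRIM28 (the corepressor it recruits), CTCF (which binds the control region of H19), the DNA methyltransferases and the TET enzymes. None was at least 2-fold higher or lower in H3K27me3 (3.32% and 3.55% of all genes) or in H3K4me3 (4.19% and 1.84%). ZFP57 was the only gene of this list with an H3K27me3 value over input in DMSO, 0.38 (-0.0038 to 0.78), which counting did not tell from input, with 137 counts and 118 after MAK683, and its H3K4me3 was under input, at -0.45 and -0.70. TRIM28 had the highest H3K4me3 of the list, at 3.85 and 3.50 over input. ZNF445, a further zinc finger protein that protects imprints, had the largest upward H3K27me3 change among those with at least 50 counts, 0.54, from 292 to 313 counts. The H3K27me3 change was above 0 in 17 of the 21 (49.9% of all genes), with a median of 0.14, and its interval lay above 0 in 6 (15.9%). H3K4me3 was lower relative to all genes in 15 of the 21 (50.0% of all genes), with a median of -0.10, and UHRF1 had the lowest value among those with at least 50 counts, -0.34.

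Flanking genes were the nearest 2 on each side of a member that did not overlap it and had at least 100 input counts. The count limit leaves out IGF2 beside H19 and RTL1 beside MEG3. The overlap limit leaves out SGCE at PEG10, COPG2 at MEST and ZIM2 at PEG3, which have enough input counts. Of 32 distinct flanking genes, H3K27me3 was above input in DMSO in 9 (32.8% of all genes) and H3K4me3 in 12 (39.8%), near those shares, with medians of -0.39 and -0.34. None of the 32 was at least 2-fold higher or lower in H3K27me3 (3.32% and 3.55% of all genes) or in H3K4me3 (4.19% and 1.84%). GOLGA6L2, STX11 and VSTM2A, the last of them 3749 kb from GRB10, were highest in H3K27me3 over input, at 1.40, 1.35 and 1.31, and COL1A2, CASD1 and PPP1R9A lowest, at -1.25, -1.23 and -1.10. The last 3 all flank PEG10, which was itself the lowest of the members. Around DLK1, the flanking median was 0.59 for H3K27me3 over input in DMSO and 0.37 for the H3K4me3 change, both below the values of DLK1.

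The genes most like DLK1 over the 4 values of both marks over input were S100A10, UNC93B8 and GPR85, at distances of 0.21, 0.22 and 0.27. S100A10 went from 655 to 380 H3K27me3 counts and from 162 to 298 H3K4me3 counts. The values share the same 6 libraries and the ratios within a treatment share the same input.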

How the data were processed

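H3K27me3, H3K4me3 and input ChIP-seq of G401 cells treated with DMSO or MAK683 gave 1 library per treatment and antibody. Per the submitters' processing notes and the methods, the authors trimmed reads with Trim Galore 0.4.4, aligned them with Bowtie2 to hg19, removed repeats with Picard 2.23.6 and ran featureCounts. They deposited whole-number read counts per gene for 56638 genes, of which 18839 were at 0 in all 6 libraries. The Drosophila spike-in factors were not part of the table and were not applied. The annotation and gene part used for counting are not given in the sources used here. The extent of overlap between genes came from GENCODE release 44 on GRCh37, matched by symbol for 33872 genes. Promoters came from RefSeq on GRCh38.p14, and no coordinates were converted.

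Changes and levels were computed with Python 3.11.15, numpy 2.4.6, pandas 2.3.3 and scipy 1.17.1, with figures from matplotlib 3.10.9, and the scripts were tested on simulated counts. No replicate test was possible with 1 library per group, and the TMM factors of edgeR 4.0.16 (R 4.3.3) served only as another scale. Intervals for a change come from the MAK683 share of a gene's counts, and PCR reads without molecular identifiers are not independent molecules. The members and lists were chosen with earlier results of these data known. Genes that could be named besides the members, of which the text names some, were the 3 highest and 3 lowest levels and changes of each list (other imprinted, maintenance and flanking genes) where a gene averaged 50 counts or more, listed genes in a member's domain, SMARCB1, and the 3 nearest profiles of the members highest in each mark. VTRNA2-1, ZNF112, BEGAIN, LINC00523 and INS-IGF2 fell outside this rule and were chosen after their values were seen. The nearest profiles of PEG10 are not reported here. MESTIT1, HYMAI, MCTS2P, GPR1-AS and PSIMCT-1 of the imprinted list were not matched by symbol. Alternatives were other scales, pseudocounts, count minimums, both inputs summed, a 1.5-fold threshold, autosomal centring and genes with at least 50% unshared span.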

Additional observations from a re-analysis of the deposited data

How the results depend on the processing

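No paired analysis was possible because there was 1 library per treatment and antibody, and for the same reason no library could be left out. A value is said to stay close where it lay within the counting interval of the main value (for a median, within the rank interval over its genes, and for a count, within 1.5 times), and to reverse where it changed sign although its interval excluded 0. Of the values that answer a comparison, 144 alternatives stayed close and 26 moved, and of those of single genes 205 stayed, 30 moved and 3 reversed. A further 11 single values with intervals that included 0, of PLAGL1, NDN, PEG10, MEST and DLK1, changed sign, and so did the median H3K27me3 change of the other imprinted genes with at least 50% unshared span (-0.030). Scaled by library totals, 1 member had its H3K27me3 interval below all genes, beside 3 in the main setting. On the TMM scale, and likewise with autosomal centring, 4 members had it below. The reversals were the H3K27me3 change of GRB10 scaled by library totals (0.0089) and, with levels centred on all genes, H3K27me3 over input in DMSO of MEST (0.24) and PLAGL1 (0.46). With counts as deposited, the median H3K27me3 change was -0.54 for the members and -0.37 for the other imprinted genes, of which 5 were at least 2-fold lower and 0 higher, and 1 was 2-fold higher in H3K4me3. With each change taken over input, the other imprinted genes had a median H3K27me3 change of -0.068 with 0 at least 2-fold higher, and 0 members were 2-fold higher in H3K4me3, since DLK1 came to 0.98. A minimum of 1 count gave 2 other imprinted genes higher in H3K27me3 and 2 members higher in H3K4me3, where MAGEL2 with 2 and 5 counts joined. A minimum of 50 counts, and likewise at least 50% unshared span, gave 0 other imprinted genes higher in H3K27me3 and 1 in H3K4me3. A pseudocount of 5 also gave 1 in H3K4me3. At 1.5-fold, 1 member and 2 other imprinted genes were higher and 5 lower in H3K27me3, and 8 other imprinted genes higher in H3K4me3. The number of members at least 2-fold above input in H3K27me3 was 2 in DMSO and 1 in MAK683 with both inputs summed, 4 and 4 with levels centred on all genes, and 1 in MAK683 with 1 CPM added. Centring also gave 2 members at least 2-fold above input in H3K4me3 in MAK683. Apart from the threshold, minimum or scale that each alternative itself changes, the cause was not tested. The H3K27me3 change of H19 was above 0 and the H3K4me3 change of DLK1 was at least 0.98 under every alternative tried. Short genes with few input counts, NDN above all, limit the depth, and 1 count per gene gives no value for a promoter alone.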
